A study of Mus musculus with 2 samples.

Results

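The feedback brakes of MAP kinase signalling described here are 10 genes, found by symbol among the 22383 genes of the expression table. They are 5 MAP kinase phosphatase genes (Dusp1, Dusp4, Dusp5, Dusp6 and Dusp10), 3 Sprouty genes (Spry1, Spry2 and Spry4) and 2 Spred genes (Spred1 and Spred2). All 10 were present, and 9 reached the minimum for a ratio, 20 counts in either library. Spry4 did not, with 3 counts and 1.

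RNA came from 2 stable lines made from iHFSC2, an immortalized mouse hair follicle stem cell line. The control line was infected with lentivirus of the empty vector, and the shcircSmad5 line with lentivirus whose hairpin targets circSmad5, the circular transcript of Smad5. Both lines were put under puromycin 4 days after infection and were established by day 15, and each gave 1 library after ribosomal RNA removal. Without a replicate or a control hairpin, the spread between cultures was not measured, and the hairpin's effect cannot be told apart from differences between separately selected lines. The gene table holds no separate value for the circular RNA, so it does not check the knockdown. The host gene Smad5 had 3109 counts with the empty vector and 3413 with the hairpin. In bulk RNA, fewer cells of a type and less RNA per cell cannot be told apart.

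The total gene counts were 39261010 with the empty vector and 38382081 with the hairpin. Keratin genes of basal epidermal cells were abundant in both: Krt5 had 2394 FPKM (the deposited level per gene length and depth) and 2664, and Krt14 had 2361 and 3359. Of 9 listed hair follicle stem cell markers in the table, 7 passed the count minimum. Besides these keratins they were Itga6 (41616 and 29412 counts), Sox9 (8829 and 5301), Nfatc1 (2300 and 2077), Tbx1 (471 and 945, 1.97-fold higher and short of the size rule) and Krt15 (253 and 79), the member that was lower. Markers in this list that passed no size rule are named to complete it, after their values were seen. Cd34 was at 0 in both libraries and Lhx2 had 4 and 5 counts. Listed markers of other skin cells were low in both libraries, with summed levels of 0.409 and 0.171 FPKM for 6 fibroblast genes, 0.451 and 0.124 for 4 endothelial genes, 0.267 and 0.39 for 2 melanocyte genes, and 5.25 and 4.70 for 3 immune genes. Col1a1, Dcn, Lum and Cdh5 were at 0 in both. Pdgfra, Pecam1, Kdr and Csf1r were lower with the hairpin, from at most 161 counts, and their part in the results was not tested.

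Growth factor receptors switch on RAS, RAF, MEK and ERK kinases in turn, and stress signals act through the related JNK and p38 kinases. MAP kinase phosphatases end these signals by removing phosphate from both a threonine and a tyrosine of the kinase. Sprouty and Spred proteins act further up, between the receptor and RAF, and many of these genes are themselves switched on by ERK, which closes a negative feedback loop. In keratinocytes, EGF receptor and ERK signalling sustains growth and holds back differentiation.

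The 5 phosphatases share a catalytic pocket, and its coding sequence is shown for each so that the members can be compared. The stretches run 5′ to 3′ and are 27 bases long. Capitals mark the codons of the invariant histidine, the catalytic cysteine, the glycine and the arginine. They come from the GENCODE M21 transcript with the longest coding sequence.
Dusp1: CATTGCcaggccGGCatctccCGGtca
Dusp4: CACTGCcaggccGGCatctccCGAtca
Dusp5: CACTGCgaagctGGGgtttccCGGtcg
Dusp6: CATTGCttggcaGGTatcagcCGCtct
Dusp10: CACTGCcaggccGGCgtgtccCGAtcc
The cysteine is residue 258 in Dusp1, 284 in Dusp4, 263 in Dusp5, 293 in Dusp6 and 409 in Dusp10. Among pairs of the 5, Dusp1 and Dusp4 shared the most bases of this stretch, 25 of 27, and Dusp5 and Dusp6 the fewest, 15. Dusp10 shared 24 with Dusp4 and 22 with Dusp1. How this likeness relates to the ratios was not tested.

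The 5 phosphatase members differed between the libraries in both directions, with a median size of the log2 ratio of 1.04. It was 0.24 for the 4 measured Sprouty and Spred members. Over all measured genes of each family, members or not, it was 0.88 for the phosphatases and 0.31 for the Sprouty and Spred genes. Ratios are shcircSmad5 over empty vector on counts scaled by TMM (trimmed mean of M values), with an exact 95% interval that covers counting error only. By the size rule (at least 20 counts, a ratio of at least 2-fold, an interval that excludes 1), 2 of the 9 measured genes were lower, Dusp1 and Dusp4, and 1 was higher, Dusp5. In the background of 13596 measured genes, 6.24% were lower and 8.43% were higher. Among the 11605 measured protein-coding genes these shares were 6.38% and 4.61%. The median log2 ratio of the 9 genes was -0.31, against -0.05 for protein-coding genes. The median size of the log2 ratio, whatever its sign, was 0.64 for the 9 genes and 0.30 for protein-coding genes. In the ranking by FPKM, Dusp6 stood highest and Spry4 lowest in both libraries. In the empty vector library Dusp6 and Dusp1 had overlapping counting intervals, as did Dusp4 and Spry2. In the shcircSmad5 library the intervals overlapped for Dusp1 and Spred1, for Dusp10 and Dusp5, and for Dusp4 and Spry1.

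**Figure D1:**
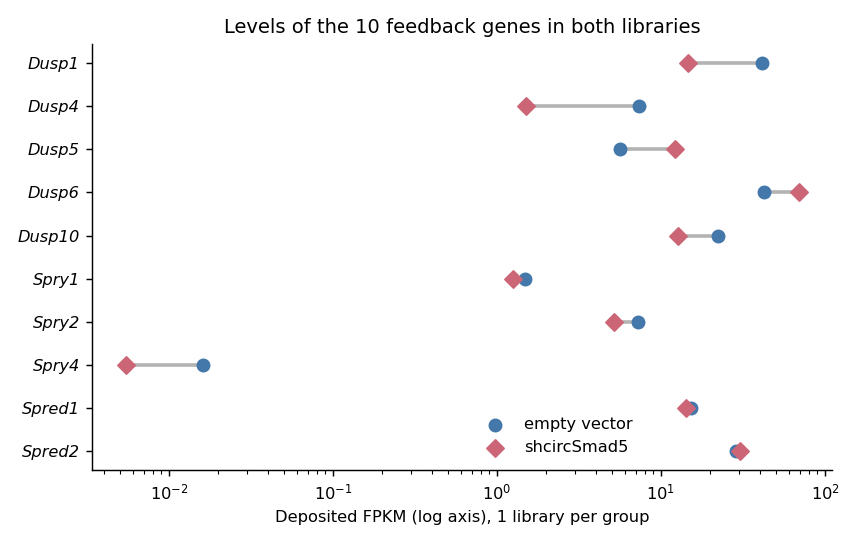
Deposited FPKM (log axis) of the 10 genes with the empty vector (circles) and the hairpin (diamonds), 1 library per group, joined by grey lines. Dusp1 and Dusp4 lie to the left in the shcircSmad5 library, at 14.5 and 1.502 FPKM, Dusp5 and Dusp6 lie to the right, at 12.1 and 69.2, and Spry4 is near 0 in both.

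Dusp1 and Dusp4 encode nuclear phosphatases that are made within a short time of stimulation, Dusp1 acting on p38, JNK and ERK, and Dusp4 on ERK and JNK. Dusp1 (ENSMUSG00000024190, GRCm38 chromosome 17, 26505590 to 26562128, minus strand) had 5376 counts with the empty vector and 1847 with the hairpin. Its level was 41.4 FPKM and 14.5 FPKM, and it was 2.97-fold lower (2.82 to 3.13). In all, 372 of the 11605 protein-coding genes had a lower ratio. Dusp1 had the second highest level of the 10 genes with the empty vector and the third with the hairpin. Its gene model joins several transcripts, with 3311 exonic bases in all against 1990 in the transcript with the longest coding sequence, so its FPKM depends on which transcripts the cells make.

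Dusp4 (ENSMUSG00000031530, chromosome 8, 34807297 to 34819894, plus strand) had 790 and 158 counts, or 7.34 and 1.502 FPKM. It was 5.10-fold lower (4.30 to 6.09), and 199 protein-coding genes had a lower ratio. With the empty vector, 49.7% of protein-coding genes had a higher FPKM than Dusp4, and with the hairpin 80.5% did.

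Dusp5, whose product binds and inactivates ERK in the nucleus, was higher with the hairpin. It is on chromosome 19 (ENSMUSG00000034765, 53529109 to 53542431, plus strand), with 549 counts for the empty vector and 1152 for the hairpin. At 5.65 and 12.1 FPKM it was 2.06-fold higher, and its counting interval of 1.85 to 2.28 reaches below the 2-fold limit. The ratio of Dusp4 to Dusp5 in FPKM was 1.30 with the empty vector and 0.124 with the hairpin. Dusp5 was the lower of the pair in the first library and had 8.08 times the level of Dusp4 in the other. Of the exonic bases of Dusp5, 22.1% lie under an antisense model that had 0 counts in both libraries.

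Dusp6 encodes the cytoplasmic phosphatase selective for ERK and is a standard readout of ERK activity. On chromosome 10 (ENSMUSG00000019960, 99263231 to 99267489, plus strand), it had 5217 and 8321 counts, or 42.4 and 69.2 FPKM. Its ratio of 1.56-fold (1.51 to 1.62) did not reach the size rule, although 91.2% of protein-coding genes had a lower ratio. Dusp1 and Dusp6 were at nearly the same FPKM with the empty vector, a ratio of 0.975, and Dusp6 had 4.76 times the FPKM of Dusp1 with the hairpin. Dusp10, whose product acts on JNK and p38, had 2667 and 1477 counts on chromosome 1 (ENSMUSG00000039384, 184013302 to 184075636, plus strand). Its levels were 22.3 and 12.7 FPKM, a log2 ratio of -0.88 (-0.98 to -0.79) that lies short of the size rule. Dusp10 had 3.95 times the FPKM of Dusp5 with the empty vector and 1.04 times with the hairpin.

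Of the Sprouty genes, Spry2 lay near the middle of protein-coding genes by FPKM and Spry1 lower, and both had log2 ratios below 0. Spry2, an inhibitor of FGF receptor signalling that also binds the ubiquitin ligase Cbl, had 595 and 412 counts (ENSMUSG00000022114, chromosome 14, 105891947 to 105896819, minus strand). At 7.26 and 5.14 FPKM its log2 ratio was -0.56 (-0.74 to -0.38). Spry1, a close relative, had 169 and 139 counts (ENSMUSG00000037211, chromosome 3, 37639947 to 37644598, plus strand), which is 1.48 and 1.25 FPKM. Its log2 ratio of -0.31 had an interval that holds 0 (-0.65 to 0.02), so a difference was not detectable at this depth. An unclassified gene model on the opposite strand covers 24.4% of its exonic bases. Spry4 had 0.0161 and 0.00548 FPKM, and 3 counts against 1 gave an interval of 0.246 to 161-fold lower, which fixes no direction.

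The Spred genes had log2 ratios close to 0. Spred1, which brings the RAS inhibitor neurofibromin to the membrane, had 4080 and 3689 counts, or 15.3 and 14.2 FPKM (ENSMUSG00000027351, chromosome 2, 117121374 to 117182279, plus strand). Its log2 ratio was -0.18 (-0.24 to -0.11). Spred2, with the same mode of action, had 5234 and 5387 counts and 28.9 and 30.4 FPKM (ENSMUSG00000045671, chromosome 11, 19924375 to 20024026, plus strand). Its log2 ratio was 0.01 (-0.04 to 0.07), and its sign turned, to -0.08, when ratios were centred by chromosome.

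**Figure D2:**
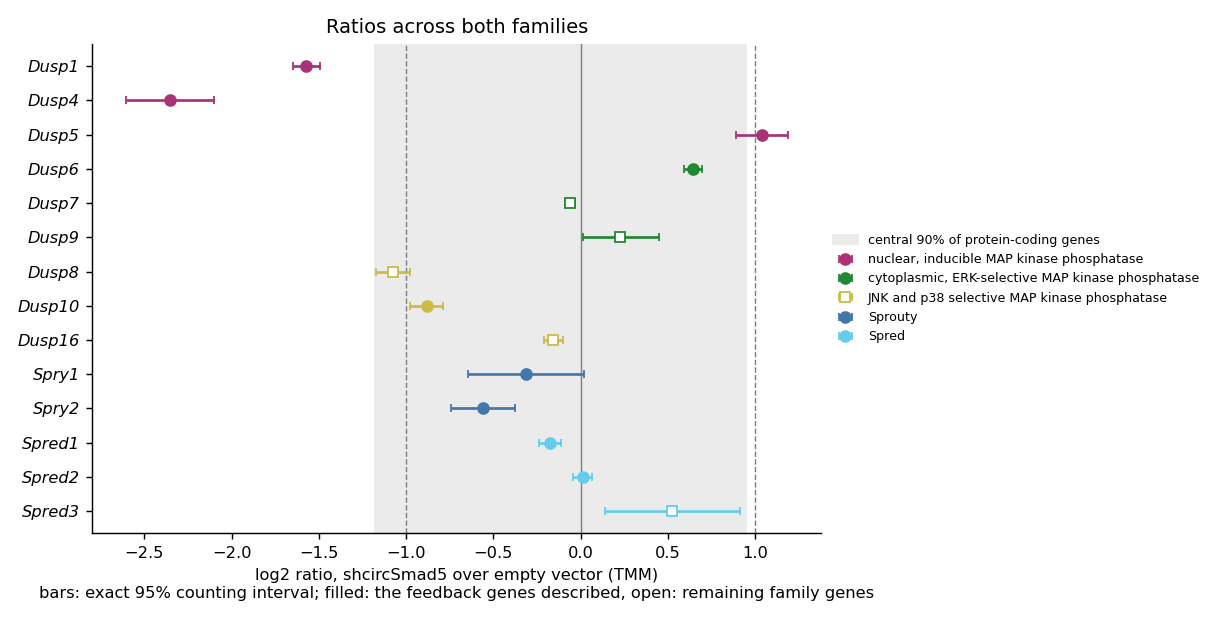
Log2 ratio of the 14 measured genes of both families, with exact 95% counting intervals. Filled points are the 9 measured feedback genes, open squares the remaining family genes, colours give the role, dashed lines mark 2-fold, and the grey band holds the central 90% of protein-coding genes (-1.18 to 0.95). Dusp1 and Dusp4 lie left of the band and the point of Dusp5 lies just right of it, with an interval that reaches into it.

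The remaining genes of both families show how the pool of transcripts was made up. The other MAP kinase phosphatases are Dusp2 (nuclear), Dusp7 and Dusp9 (cytoplasmic, selective for ERK), and Dusp8 and Dusp16 (JNK and p38). Dusp7 was the most abundant, with 153 FPKM in both libraries and a log2 ratio of -0.06. Dusp8 had 2637 and 1278 counts, or 13.8 and 6.84 FPKM, and was 2.11-fold lower (1.97 to 2.25). With each chromosome centred, its log2 ratio was -0.996 and just short of the limit. Dusp16 (18.9 and 17.7 FPKM) and Dusp9 (3.01 and 3.69 FPKM) did not reach the size rule, and Dusp2 had 9 counts and 1. Of the remaining Sprouty and Spred genes, Spred3 had 96 and 141 counts with a log2 ratio of 0.52 (0.14 to 0.91), and Spry3 had 0 and 7 counts.

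Summed over all 10 phosphatases, the level was 308 FPKM with the empty vector and 292 with the hairpin. The shares of the role groups in that sum were as follows. The nuclear group (Dusp1, Dusp2, Dusp4 and Dusp5) summed to 54.5 and 28.2 FPKM, which is 17.7% and 9.67% of the family. The cytoplasmic group selective for ERK (Dusp6, Dusp7 and Dusp9) summed to 198.5 and 226 FPKM, 64.4% and 77.6% of the family. The JNK and p38 group (Dusp8, Dusp10 and Dusp16) summed to 55.0 and 37.2 FPKM, 17.9% and 12.8%. Dusp1 alone made up 13.4% and 4.98% of the family sum, and Dusp6 13.8% and 23.7%. The difference in level, hairpin minus empty vector, was -26.8 FPKM for Dusp1 and 26.8 FPKM for Dusp6. They nearly cancelled in the sum of deposited FPKM, which is not scaled by TMM as the ratios are. With TMM scaling, the sum over all 10 phosphatases had a log2 ratio of -0.14. The Sprouty and Spred genes summed to 53.3 and 51.6 FPKM, and Spred transcripts made up 83.6% and 87.5% of that.

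**Figure D3:**
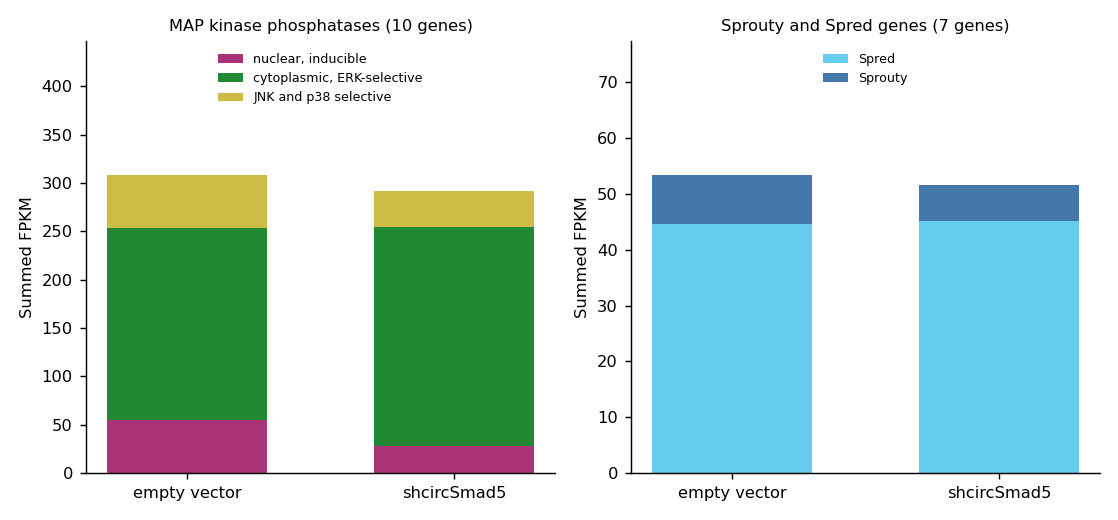
Summed FPKM of the 10 MAP kinase phosphatase genes by role (left) and of the 7 Sprouty and Spred genes (right), as stacked bars from 0 for the empty vector and shcircSmad5 libraries, 1 library each. The nuclear segment is 54.5 FPKM with the empty vector and 28.2 with the hairpin, and the cytoplasmic segment selective for ERK is 198.5 and 226.

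Genes near Dusp1 had a median log2 ratio below 0. The 643 measured genes of chromosome 17 had a median log2 ratio of -0.38, with 9.95% lower and 4.199% higher. The 45 measured genes whose left ends lie within 1 Mb of that of Dusp1 had a median of -0.42. Of these 45 genes, 6 were lower and 2 were higher. The nearest measured gene on one side is Ergic1, a gene of endoplasmic reticulum to Golgi transport. With 4830 and 1620 counts, Ergic1 was 3.04-fold lower (2.88 to 3.22), against 2.97-fold for Dusp1. The genes run in opposite directions, and their models share 11 exonic bases, 0.332% of those of Dusp1. On the other side, the noncoding gene Gm34455 had 17 and 25 counts. Neurl1b, named after its value was seen, lies beyond it and was 2.30-fold lower. After centring by chromosome, Dusp1 had a log2 ratio of -1.19 and still passed. The part of the position in the ratio of Dusp1 was not tested.

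Around Dusp4, 7 measured genes had a median log2 ratio of -0.11. The nearest, Saraf and Tnks, had log2 ratios of -0.19 and 0.05, and the median of chromosome 8 was -0.13 against -2.35 for Dusp4. Of the 7, Gm16793 (-1.91) and Mfhas1 (-1.31), named after their values were seen, were lower. Among all measured genes of chromosome 8, 7.25% were lower and 4.79% higher. Around Dusp5, 11 genes had a median of 0.35. The noncoding gene Mirt1, whose left end lies 85.9 kb away, had 311 and 1083 counts, 3.41-fold higher (3.00 to 3.88), and Smc3 on the other side had a log2 ratio of 0.12. With chromosome 19 centred at its median of 0.14, Dusp5 had a log2 ratio of 0.90 and no longer reached 2-fold.

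**Figure D4:**
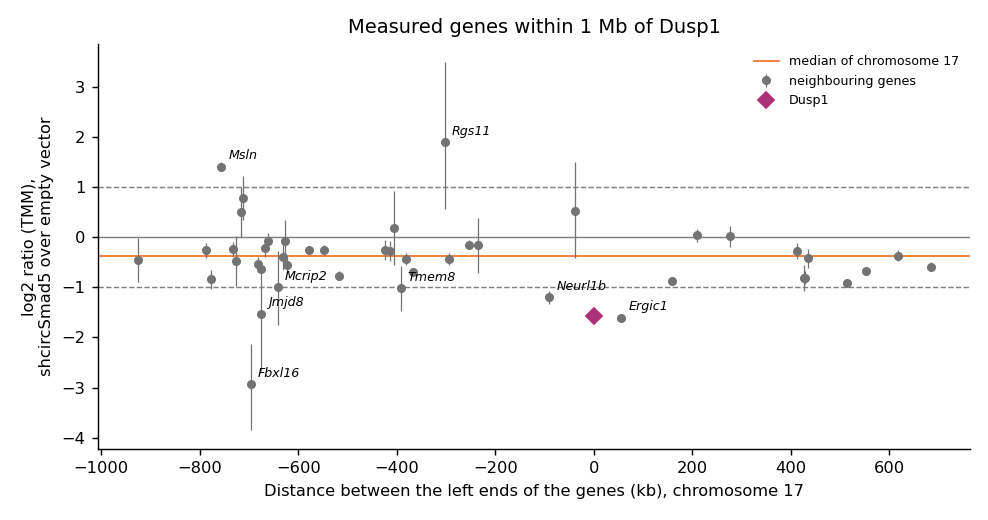
Log2 ratio of the 45 measured genes within 1 Mb of Dusp1 against the distance between left ends in kb, with 95% counting intervals, and Dusp1 as a diamond at 0. Genes past the size rule are named, dashed lines mark 2-fold, and the orange line is the chromosome 17 median of -0.38. Ergic1 lies beside Dusp1 at nearly the same ratio.

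The promoters of the inducible genes Dusp1 and Dusp5 are printed to show their response elements. These genes were chosen after their ratios were seen, and a link between the elements and the ratios was not tested. The RefSeq promoter table (GRCm38.p6) matched 8 of the 10 genes, without Dusp4 and Spry4. Each window is the 250 bases before the gene's start in RefSeq, 5′ to 3′ on the gene's strand. The window of Dusp1 lies inside the longer GENCODE gene model, whose far end reaches Ergic1. Capitals mark the cyclic AMP response element TGACGTCA or its core TGACG, on either strand, and the serum response element (the CArG box). The core lies within the full element, so each full element also counts as a core on both strands.
Dusp1, chr17:26508473-26508722, minus strand: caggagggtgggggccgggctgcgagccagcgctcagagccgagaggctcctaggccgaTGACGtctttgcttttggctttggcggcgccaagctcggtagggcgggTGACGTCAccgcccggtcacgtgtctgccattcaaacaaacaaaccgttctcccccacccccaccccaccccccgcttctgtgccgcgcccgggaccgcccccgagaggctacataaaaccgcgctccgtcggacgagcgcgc
Dusp5, chr19:53528895-53529144, plus strand: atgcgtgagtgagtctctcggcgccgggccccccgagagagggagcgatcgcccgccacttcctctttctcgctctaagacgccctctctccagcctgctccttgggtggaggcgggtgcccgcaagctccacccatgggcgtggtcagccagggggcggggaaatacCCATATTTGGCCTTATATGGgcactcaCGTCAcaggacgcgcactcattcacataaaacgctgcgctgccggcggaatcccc
The window of Dusp1 held 1 full TGACGTCA, beginning 143 bases before the start, and 1 further core. That of Dusp5 held 2 adjacent serum response elements, beginning 82 and 72 bases before the start, and 1 core. Of 32851 windows in the table, 1.55% held TGACGTCA, 17.8% the core and 1.47% a serum response element. Among the 13 windows of both families, TGACGTCA was found in Dusp1 and Dusp8, and Dusp8 had 2 copies. The AP-1 site TGANTCA and the ETS site in the form CCGGAAGT, present in 6.75% and 2.88% of all windows, were in none of the 13. Other forms of the ETS site were not searched. The 306 measured protein-coding genes with TGACGTCA in a window had a median log2 ratio of -0.06, with 2.94% higher and 2.61% lower, and the 8953 without it also had a median of -0.06, with 4.46% higher and 6.20% lower. The 129 with a serum response element had a median of -0.07, with 3.88% higher and 10.1% lower, and the 9130 without one had a median of -0.06, with 4.41% higher and 6.02% lower. A match is a description of letters, and binding was not measured.

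Inducible transcripts often carry AU-rich sites in the 3′ UTR that shorten their life, and Dusp1 is a known example. Its 3′ UTR of 690 bases held 4 copies of ATTTA, or 5.80 per kilobase, against a median of 1.52 per kilobase over 7929 measured protein-coding genes with a 3′ UTR of at least 500 bases. The 3 places in it where the core lies in TATTTAT (capitals) are shown with the bases around them.
Dusp1 site at base 104: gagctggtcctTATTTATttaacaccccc
Dusp1 site at base 393: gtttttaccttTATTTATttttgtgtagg
Dusp1 site at base 589: gtatgtttgttTATTTATgatctgaagta
Dusp4, Dusp5, Dusp6 and Dusp10 held no TATTTAT in their 3′ UTR. Spry4 held 4, Spred1 held 3, as many as Dusp1 but in 4330 bases, Spry1 and Spry2 held 2 each, and Spred2 held 1. Of the remaining family genes, Dusp8 held 2, Dusp2 and Spred3 held 1 each, and Dusp7, Dusp9 and Dusp16 held none. By ATTTA per kilobase, Dusp2 stood above Dusp1 at 6.88, and Dusp8 was at 2.11. The other members ran from 0.84 in Dusp6 to 2.77 in Spred1. These counts cover whole 3′ UTRs. Of the measured family genes, only Dusp1, Spred1 and Dusp8 held TATTTAT in the 500 bases after the stop codon. In that same window, 11.8% of the 7929 genes held TATTTAT. Those genes had a median log2 ratio of -0.08, against -0.05 for the rest.

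The hairpin's 21-base target is printed with the 7 bases that would pair with positions 2 to 8 of a guide strand in capitals, to compare it with the transcripts of the 10 genes.
Hairpin target: tccagcagaggacTTGCACTa
The whole target occurred in none of the annotated transcripts of the 10 genes. The 7 bases occurred 2 times in the whole 3′ UTR of Spry4, of 3559 bases, and in none of the 3′ UTRs of the 9 measured genes. Over the shorter window of 500 bases after the stop codon, they occurred in 4.87% of the 7929 genes. Those genes had a median log2 ratio of -0.10, against -0.05 for the rest.

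The lists of pathway genes around the members were chosen with earlier results of these data known, and their counts are descriptions, beside 6.38% lower and 4.61% higher among all measured protein-coding genes. Of 12 measured receptor tyrosine kinase genes, 3 were lower and none higher: Fgfr1 (1173 and 15 counts, 79.8-fold), Fgfr3 (814 and 267) and Pdgfra (161 and 62). The list's median of -0.06 was above 0 under 4 of 10 alternatives. Egfr, the main growth factor receptor of keratinocytes, named after its value was seen, had a log2 ratio of -0.03. Of 9 adaptor and exchange factor genes (median -0.18), the FGF receptor adaptor gene Frs2 (37642 and 14811 counts) and the RAS activator gene Rasgrp1 (512 and 192) were lower. Of 12 RAS, RAF and scaffold genes (median 0.07, -0.07 with each chromosome centred), the scaffold gene Ksr1 (280 and 121 counts) and the RAS relative Mras (286 and 84) were lower. Of 10 MEK, ERK and RSK genes (median -0.28), the RSK genes Rps6ka2 (2046 and 816 counts) and Rps6ka6 (8 and 164) passed in opposite directions. Of 14 JNK and p38 pathway genes (median -0.14), Map3k1, a kinase that activates the JNK branch, had 3436 and 1365 counts and was lower.

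Genes that ERK switches on gave values on both sides. Among 14 measured transcription factor genes of this kind the median was -0.50, and Jun was the member past the size rule (4548 and 2219 counts, log2 ratio -1.07). Among 10 other output genes the median was 0.14, with the EGF receptor ligand gene Tgfa higher (2343 and 5461 counts, log2 ratio 1.19) and the early response gene Ier3, also on chromosome 17, lower (5160 and 1913, log2 ratio -1.46). Of 10 other feedback inhibitors (median 0.03), Il17rd, which encodes an inhibitor of FGF signalling, was lower (92 and 32 counts, log2 ratio -1.55). None of 10 genes for Sprouty and Spred partners passed. Their most abundant members were Nedd4 (log2 ratio 0.34), Cav1 (0.35) and Ptpn11 (-0.31), and the median of -0.07 became 0.0025 under totals without the mitochondrial and most abundant genes. Of 9 atypical dual-specificity phosphatase genes (median 0.08, negative under 2 alternatives), Dusp27 was higher, with 0 and 20 counts. Its ratio was 6.53-fold with a floor of 3 counts for the 0, and its counting interval starts at 4.84-fold. None of 6 other phosphatase genes of MAP kinases passed (median -0.24), with Ppp2ca at 0.20, Ppp2r1a at -0.61 and Ppm1a at -0.14.

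**Figure D5:**
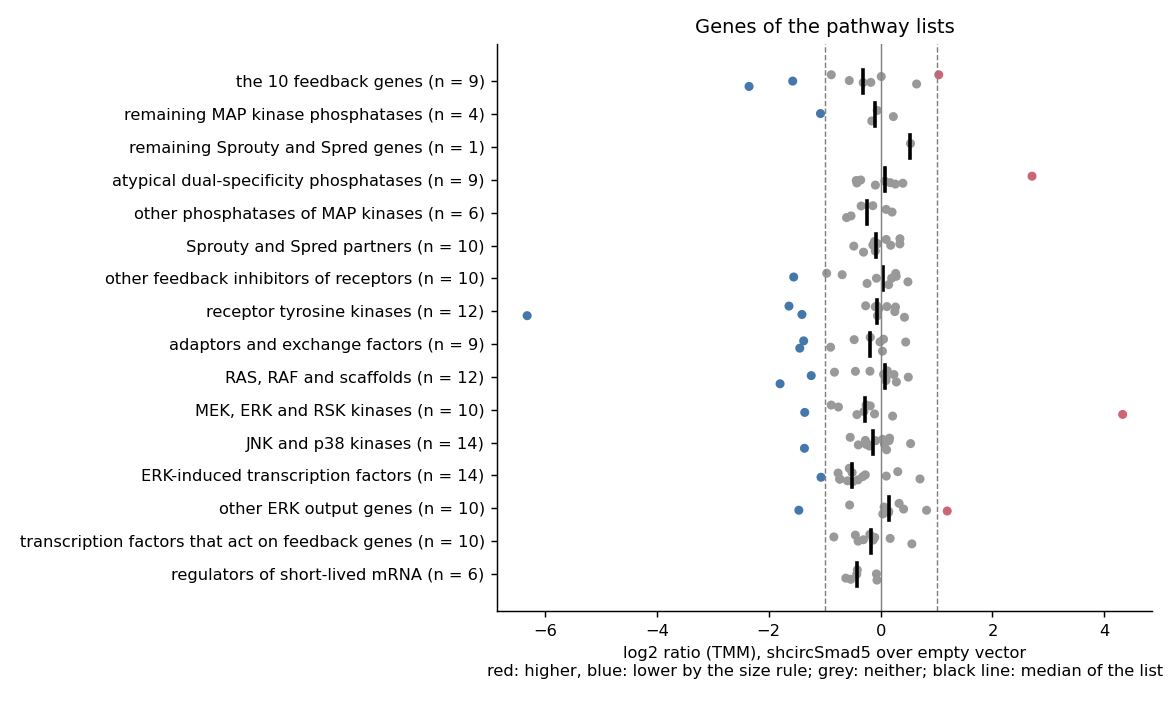
Log2 ratio of each measured gene (points) in the 10 feedback genes and 15 pathway lists, with the median of each list as a black line and dashed lines at 2-fold. Red points are higher and blue points lower by the size rule. The transcription factors induced by ERK lie furthest to the left by median among lists of more than 10 measured genes, at -0.50.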

How the data were processed

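The authors deposited 1 table with a whole-number read count and an FPKM value per gene for each of the 2 libraries, per the file headers. The counts are not normalized. The submitters' processing notes name HISAT2, HTSeq 0.13.5, GRCm38 and GRCh38 and give none of them a role. The library kit keeps strand, per the labels' protocols. Whether the counting used strand, and its treatment of multiply mapped reads, were not stated. The gene length implied by each deposited FPKM value and its count was whole within 0.001 bases for 100.0% of genes above 0, and equalled the GENCODE M21 exon length for 98.2% (empty vector) and 98.3% (shcircSmad5). Columns were matched to libraries by name, and 0 were left unmatched.

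TMM scaling used edgeR 4.0.16 under R 4.3.3. Intervals are exact Clopper-Pearson 95% intervals of a gene's count split between the libraries. They cover counting error only, as do the exact Poisson intervals of levels. No test was run and no p-value is given, since each group is 1 library. For ratios, 3 counts stood in for 0. The functions were tested on simulated data. GENCODE M21 (GRCm38) matched 22319 gene IDs and left 64 out. Promoter letters came from RefSeq.

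The members and lists were chosen with earlier results of these data known. Named are all members, the measured genes of the remaining family lists, the most abundant genes past the size rule in each other list (at most 4) or, with none past it, its 3 most abundant, and the nearest measured neighbours of members past the rule. Alternatives were DESeq2 1.42.0 size factors, scaling by total counts or the upper quartile, totals without mitochondrial and top 20 genes, TMM over protein-coding genes, a prior count of 2, log2(FPKM + 0.1), minimums of none and of 100 counts, other limits (1.5-fold, 3-fold) and chromosome centring.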

Additional observations from a re-analysis of the deposited data

How the results depend on the processing

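Dusp4 stayed lower by the size rule under all 12 alternatives. Dusp1 stayed lower under all but the limit of 3-fold, which left 1 gene lower, and its log2 ratio ran from -1.57 to -1.19. Dusp5, close to the limit, ran from 0.90 to 1.12. The count of higher genes was 0 with a limit of 3-fold, 2 with a limit of 1.5-fold (Dusp5 and Dusp6), and 0 with each chromosome centred. With the limit of 1.5-fold, 3 genes were lower (Dusp1, Dusp4 and Dusp10). The median of -0.31 became -0.44 with no count minimum, which brings in Spry4, and -0.45 with each chromosome centred. It ran from -0.45 to -0.23 over all alternatives. Log2 ratios of Dusp1, Dusp6, Spred1 and Spred2 left their counting interval under at least 1 alternative. Changed minimums and limits leave a gene's log2 ratio as it is and bear only on the calls. No paired analysis was possible because each group has 1 library. Depth limited Spry4, Dusp2 and Spry3, which had at most 9 counts, and left the sign of Spry1 unsettled.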

Other observations

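Genes that act on the feedback genes from outside the kinase pathway were also read. The 6 measured regulators of short-lived mRNA had a median log2 ratio of -0.42, which ran from -0.42 to -0.20 over the alternatives. None passed the size rule. The most abundant were Zfp36l2 (15211 and 11634 counts, log2 ratio -0.42), which encodes a protein that promotes decay of AU-rich mRNA, Khsrp (9814 and 6512, -0.62) and Hnrnpd (8267 and 6279, -0.43). Zfp36l2 and Khsrp lie on chromosome 17, whose median log2 ratio was -0.38. Their part in the level of Dusp1 was not tested.

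Of 10 transcription factor genes that act on feedback genes, none passed the size rule (median -0.17). Cic, which encodes a repressor of several ERK target genes, had 9808 and 8761 counts (log2 ratio -0.19). Ets2 had 14505 and 16671 (0.17), and Elk4 had 6970 and 5748 (-0.31).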
